A study of Mus musculus with 9 samples.

Results

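The 10 genes described here, Gja1, Gja5, Gjc1, Dsp, Pkp2, Jup, Dsg2, Dsc2, Cdh2 and Ctnna3, encode junction proteins of the intercalated disc of the heart, and were taken by symbol from the 43154 genes listed for each heart. All 10 reached 1 FPKM (fragments counted per length of transcript and per size of library) in at least 2 hearts, as did 13487 genes in all. Hearts of C57BL/6 mice were profiled by sequencing of mRNA in 3 groups: calcineurin transgenic mice given JIB-04 (n = 2), calcineurin transgenic mice given vehicle (n = 3) and wild type mice given vehicle (n = 4). JIB-04, an inhibitor of Jumonji histone demethylases, was given at 50 mg/kg, and dosing began at 4 weeks of age and was repeated 3 times a week. Hearts were taken on postnatal day 125 (1 transgenic JIB-04, 1 transgenic vehicle and 2 wild type hearts) or day 158 (1, 2 and 2 hearts in the same order). The series text names a myosin heavy chain promoter for the calcineurin A transgene, so the transgene acts in cardiomyocytes, and both transgenic groups carry it. Wild type mice given JIB-04 were not analysed here, and each heart carries its own mouse number in the labels, with no litter given.

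The intercalated disc joins cardiomyocytes end to end. Its gap junctions are channels of connexins that pass current between cells, its desmosomes anchor desmin filaments through desmosomal cadherins, plakoglobin, plakophilin and desmoplakin, and its adherens junctions tie N-cadherin to actin through catenins. In the mammalian heart desmosomal and adherens proteins mix in one structure, the area composita, and inherited variants in the desmosomal genes are known for causing arrhythmogenic cardiomyopathy.

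The promoters of Gja1 (Cx43, the main connexin of working ventricular muscle) and Gja5 (Cx40, of atria, the conduction system and arterial endothelium) are shown because both genes had lower mean levels in the transgenic groups and because calcineurin acts on NFAT factors, whose core motif was among those searched. Dsg2 and Dsc2, which were lower as well, had no entry among the promoters at hand. The sequences are RefSeq's for GRCm38.p6, the 250 bases before RefSeq's gene start on the plus strand, read 5′ to 3′, at chr10:56377050-56377299 for Gja1 and chr3:97032152-97032401 for Gja5. For Gja5 that start is neither the start in the files, 97032416, nor the GENCODE gene start, 96904693. Capitals mark matches on either strand to the NFAT core GGAAA, to a GATA motif, AGATAA, or to an AP-1 motif, TGAGTCA, so that a match on the minus strand appears as its reverse complement.
Gja1: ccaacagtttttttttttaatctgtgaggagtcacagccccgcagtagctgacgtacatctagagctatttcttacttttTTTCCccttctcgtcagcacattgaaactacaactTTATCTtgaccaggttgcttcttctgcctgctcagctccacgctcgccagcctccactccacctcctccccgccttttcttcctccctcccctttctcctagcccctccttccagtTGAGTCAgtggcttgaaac
Gja5: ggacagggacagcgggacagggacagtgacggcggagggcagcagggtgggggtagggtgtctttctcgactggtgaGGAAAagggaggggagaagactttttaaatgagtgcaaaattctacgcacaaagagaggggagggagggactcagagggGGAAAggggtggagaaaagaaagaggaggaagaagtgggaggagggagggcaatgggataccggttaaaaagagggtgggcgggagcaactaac
Gja1 held 1 NFAT core from 170 to 166 bases before the start, 1 GATA motif and 1 AP-1 motif from 19 to 13 bases before it, whereas Gja5 held 2 NFAT cores and neither of the other motifs. Neither window held the MEF2 motif (CTA and TAG parted by 4 bases) or the T-box half-site TCACAC, and no matches overlapped. Of 32817 mouse promoters of this length, 55.56% held the NFAT core, 9.99% the GATA motif, 4.46% the AP-1 motif, 3.2% the MEF2 motif and 12.29% the T-box half-site, so the NFAT core is in most promoters. The matches describe letters only.

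Some hearts stood apart before any junction gene was compared. Ppp3ca, which encodes calcineurin A alpha, was at 1536 and 1434 FPKM in transgenic JIB-04 hearts, at 1762, 1706 and 199 FPKM in transgenic vehicle hearts and at 22.9 to 24.8 FPKM in wild type hearts, so that every library matched its genotype label while transgenic vehicle heart 3 had far less of it than the other transgenic hearts. In that heart Myh6, the adult alpha myosin heavy chain, was at 705 FPKM, against 1755 to 2220 FPKM in the other 4 transgenic hearts. That heart and JIB-04 heart 2 had 29.8% and 30.9% of their summed FPKM on the mitochondrial chromosome, with mt-Atp6 listed at 0 in the other 7 hearts, and wild type heart 4 had 13.5 FPKM of atrial Myl7, against 0 to 4.84 FPKM elsewhere. Depth was judged from the step between low FPKM values, relative to wild type heart 1. It was 1.0 to 1.21 in wild type hearts and 1.235 to 1.49 in transgenic hearts. Every transgenic heart was thus estimated as deeper than every wild type heart, and the part of depth in the differences was not tested. Total read counts were not used here.

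Disc transcripts differed between transgenic and wild type hearts in both directions. In transgenic vehicle hearts Pkp2 and Cdh2 rose and Dsg2, Dsc2 and Gja1 fell relative to wild type hearts, while Dsp, Jup, Ctnna3, Gjc1 and Gja5 did not pass the test (limma on log2(FPKM + 1) over all 9 hearts with a term for day, two-sided, Benjamini-Hochberg adjusted p under 0.05). That is 5 of 10 genes, 2 higher and 3 lower, beside 36.0% of all genes tested (20.3% higher and 15.7% lower). Over all genes the split of higher and lower calls depended on scaling, with 2358 and 2516 genes by median of ratios and 2233 and 2540 genes by quantile normalization, while the same 5 of the 10 genes passed under both. The median difference of the 10 genes was 0.00 on the log2 scale, against 0.05 over all genes tested. Without transgenic vehicle heart 3 the same 5 genes passed.

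**Figure D1:**
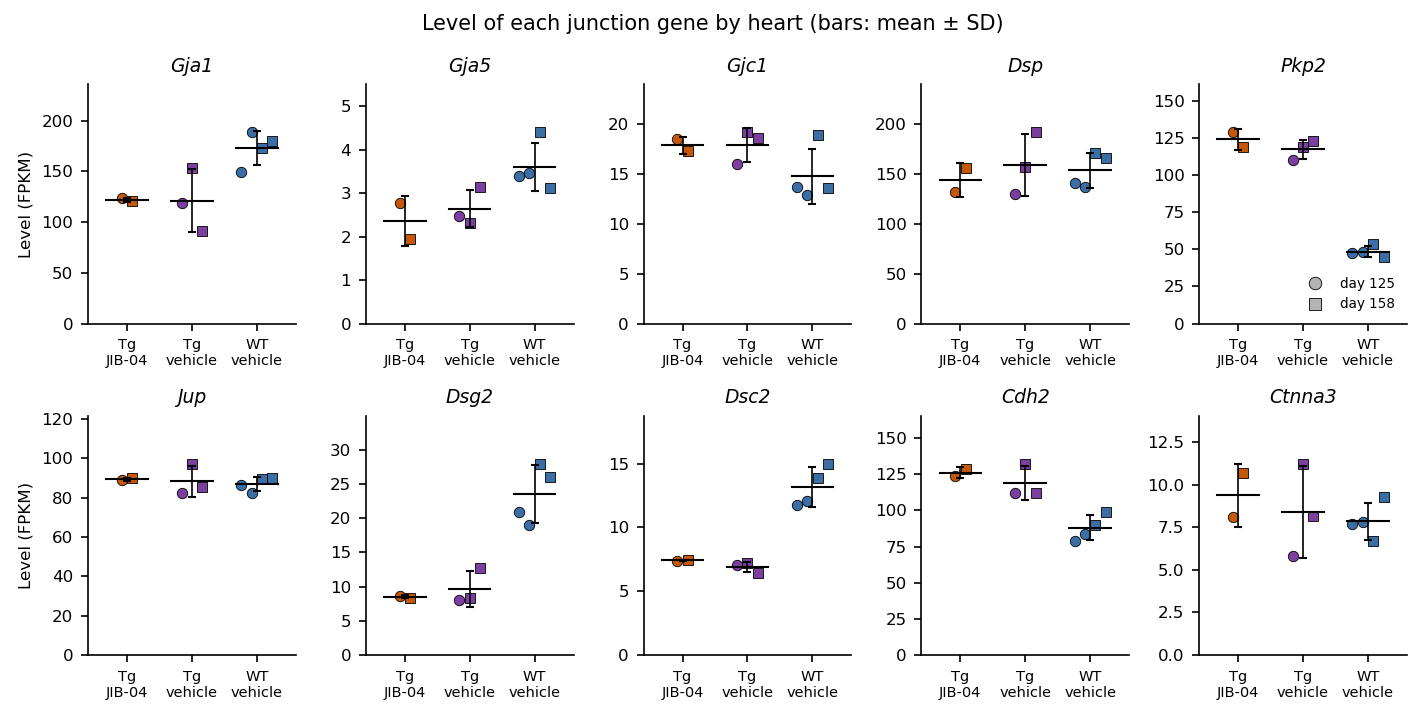
Level in FPKM (y axis, linear from 0) of the 10 junction genes in each heart of the transgenic JIB-04, transgenic vehicle and wild type vehicle groups; circles are day 125 hearts, squares day 158 hearts, and bars give the mean ± SD. Pkp2 and Cdh2 lay higher and Dsg2 and Dsc2 lower in all 5 transgenic hearts than in all 4 wild type hearts, and the other 6 genes overlapped.

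Gap junction genes. Gja1 was at 123 and 121 FPKM in transgenic JIB-04 hearts, at 119, 153 and 91.7 FPKM in transgenic vehicle hearts and at 149.96, 189, 174 and 180.3 FPKM in wild type hearts. Transgenic vehicle heart 2 lay above the lowest wild type heart, so these groups overlapped, whereas both JIB-04 hearts lay below every wild type heart. The log2 difference between transgenic vehicle and wild type hearts was -0.54 ± 0.17 (SE; a 1.45-fold lower level on the log2(FPKM + 1) scale), with limma's adjusted p at 0.0358. The locus lies on chromosome 10 from 56377300 to 56390419 on the plus strand (GRCm38).

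The Gja1 call depended on processing and on single hearts. With no filter on low genes it did not pass (adjusted p = 0.0988, limma), nor with the compared groups alone (0.0545). It was lost without transgenic vehicle heart 1 (adjusted p = 0.11), JIB-04 heart 1 (0.0552), JIB-04 heart 2 (0.0551), wild type heart 2 (0.078), wild type heart 3 (0.0832) or wild type heart 4 (0.0949), all from limma, although the difference stayed between -0.56 and -0.49 in those fits. Without transgenic vehicle heart 3, the lowest, it was -0.35 with adjusted p = 0.0469. Between JIB-04 and wild type hearts the Gja1 difference was -0.50 ± 0.19 and did not pass (adjusted p = 0.076, limma), and it passed without transgenic vehicle heart 2 (adjusted p = 0.0239) or heart 3 (adjusted p = 0.0118), with the value itself the same.

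Gjc1 (Cx45, of the conduction system and developing heart) was at 18.5 and 17.3 FPKM in transgenic JIB-04 hearts, at 15.9, 19.1 and 18.5 FPKM in transgenic vehicle hearts and at 13.7, 12.9, 18.8 and 13.6 FPKM in wild type hearts. Wild type heart 3 was as high as the transgenic hearts, and the other 3 wild type hearts lay below all 5 of them. The difference between transgenic vehicle and wild type hearts, 0.25 ± 0.12 (log2, SE), did not pass (adjusted p = 0.146, limma), and without wild type heart 3 it was 0.37 with adjusted p = 0.0273. Between JIB-04 and wild type hearts it was 0.28 ± 0.13 (adjusted p = 0.156), and without wild type heart 3 it was 0.38 (adjusted p = 0.0333). Gja5 was the lowest of the 10 genes, at 2.77 and 1.95 FPKM in transgenic JIB-04 hearts, at 2.47, 2.32 and 3.14 FPKM in transgenic vehicle hearts and at 3.405, 3.47, 4.40 and 3.12 FPKM in wild type hearts. Only transgenic vehicle heart 3 among the transgenic hearts reached the wild type range. The Gja5 difference was -0.33 ± 0.14 between transgenic vehicle and wild type hearts (adjusted p = 0.105, limma) and -0.46 ± 0.16 between JIB-04 and wild type hearts (adjusted p = 0.0618), the second of which passed without transgenic vehicle heart 3 (adjusted p = 0.0398) and with scaling by median of ratios (0.0458) or quantile normalization (0.0328).

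The ratio of Gja1 to Gjc1 within a heart, which does not depend on scaling between hearts, was lower in transgenic hearts. Gja1 exceeded Gjc1 by 6.82 ± 1.16-fold in the 5 transgenic hearts and by 12.0 ± 2.41-fold in the 4 wild type hearts (mean ± SD). On the log2 scale the ratio ran from 2.31 to 3.00 in transgenic hearts and from 3.204 to 3.87 in wild type hearts, with no overlap, and the difference of -0.82 gave an exact two-sided permutation p of 0.0159 (0.0476 adjusted over 3 ratios), which is the smallest that 5 against 4 hearts can give. Of the summed FPKM of 20 connexin genes, Gja1 made up 78.9 ± 0.55% in transgenic JIB-04 hearts, 77.7 ± 5.08% in transgenic vehicle hearts and 84.1 ± 2.196% in wild type hearts. Gjc1 made up 11.5 ± 0.29%, 11.8 ± 2.40% and 7.18 ± 1.32% in the same order, and the summed level was 155 ± 3.53, 155 ± 30.5 and 206 ± 16.2 FPKM.

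**Figure D2:**
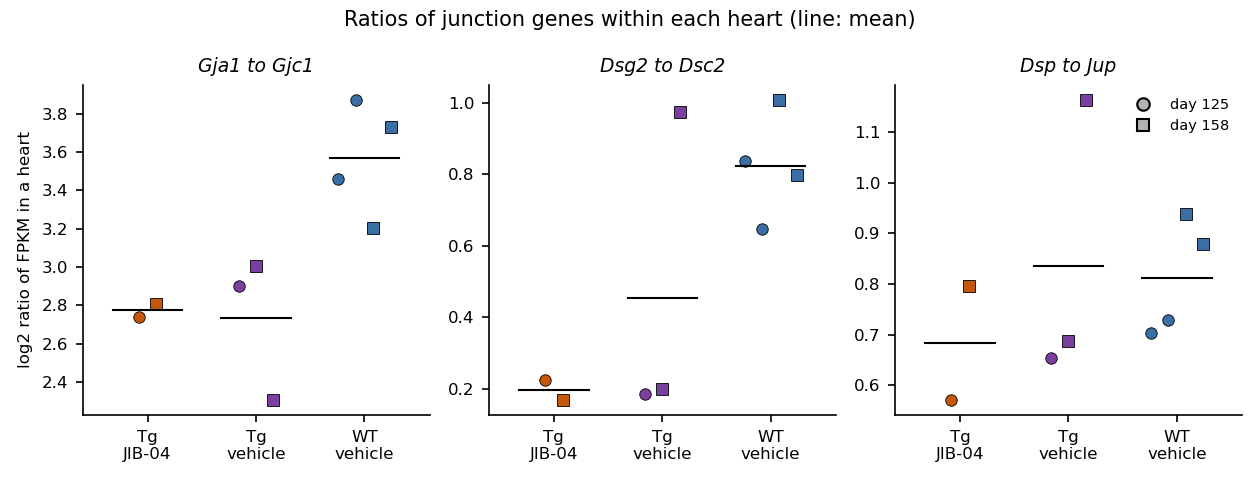
Log2 of the FPKM ratio of 2 junction genes within each heart (y axis), by group, with circles for day 125, squares for day 158 and a line at the group mean. The ratio of Gja1 to Gjc1 was lower in all 5 transgenic hearts than in all 4 wild type hearts, while transgenic vehicle heart 3 fell within the wild type range for Dsg2 to Dsc2 and above it for Dsp to Jup.

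Endothelial cells hold connexins too. General endothelial markers were lower in summed level in transgenic hearts, while arterial ones overlapped. Of 8 endothelial marker genes, 5 fell and none rose in transgenic vehicle hearts relative to wild type hearts. Over all genes tested 15.7% fell and 20.3% rose in that comparison. Their summed level was 182 to 208 FPKM in transgenic JIB-04 hearts, 207 to 294 FPKM in transgenic vehicle hearts and 323 to 354 FPKM in wild type hearts. Of 9 arterial endothelial markers 1 rose and 1 fell, with sums of 59.3 to 61.7, 57.3 to 88.9 and 57.8 to 71.2 FPKM in the same order. Gja4, a connexin on that list, was at 7.66 and 7.63 FPKM in transgenic JIB-04 hearts and at 7.58, 6.43 and 8.94 FPKM in transgenic vehicle hearts. Wild type hearts had 6.27 to 7.93 FPKM of it, so the groups overlapped. Of 5 conduction system markers tested 2 rose and 2 fell, with sums over 8 listed of 33.9 to 36.3, 24.5 to 44.8 and 17.9 to 22.3 FPKM, and Isl1, a sinus node marker, was listed at 0 in every heart. Of 7 atrial markers tested, Kcnj3 (-1.95, adjusted p = 9.58e-05) and Stard10 (-1.11, adjusted p = 0.000226) fell and none rose, and the sums over 8 listed were 36.2 to 41.6, 36.3 to 43.5 and 55.7 to 88.3 FPKM in the same order. Atrial Myl4 had the other sign (1.29, adjusted p = 0.0967), and without wild type heart 4 the list had 2 genes higher and 2 lower. The part of these cells in the connexin levels was not tested, and in bulk tissue fewer cells of a type and less RNA per cell cannot be told apart.

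Other connexins were few in these hearts: of 20 further connexin and pannexin genes, 4 reached the level for testing. In transgenic vehicle hearts Panx1 and Panx2, pannexins that form channels in the plasma membrane, passed as higher and Gja3 as lower. Both pannexins reached 1 FPKM in transgenic hearts alone, so that they entered the test through the group in which they were higher. Panx1 was at 2.22 and 2.31 FPKM in transgenic JIB-04 hearts, at 1.61, 2.38 and 2.49 FPKM in transgenic vehicle hearts and at 0.386 to 0.928 FPKM in wild type hearts, with no overlap (0.97 ± 0.16, adjusted p = 0.00237, limma, transgenic vehicle against wild type). Gja3 (Cx46, best known from the lens) was at 2.88 and 3.19 FPKM, at 3.88, 4.54 and 4.06 FPKM and at 5.74 to 6.75 FPKM in the same order (-0.48 ± 0.08, adjusted p = 0.00238). The Panx2 difference of 0.58 ± 0.17 (adjusted p = 0.0288) did not pass without transgenic vehicle heart 3 (0.0597) or without wild type heart 1, 2, 3 or 4 (0.0612, 0.0556, 0.0784 and 0.0537).

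Desmosomal plaque genes. Pkp2 (plakophilin-2, which links desmosomal cadherins to desmoplakin) had the largest rise among the 10 genes. It was at 129 and 119 FPKM in transgenic JIB-04 hearts, at 110.4, 119 and 123 FPKM in transgenic vehicle hearts and at 47.5, 48.0, 53.4 and 44.8 FPKM in wild type hearts. The groups were far apart, with every transgenic heart above 110 FPKM and every wild type heart below 54 FPKM. The log2 difference was 1.34 ± 0.09 for JIB-04 against wild type hearts (adjusted p = 4.8e-05, limma) and 1.26 ± 0.08 for transgenic vehicle against wild type hearts (2.39-fold, adjusted p = 3.06e-05). The locus lies on chromosome 16 from 16213318 to 16272712 on the plus strand.

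The other plaque genes did not share the rise of Pkp2. Dsp (desmoplakin, which binds desmin filaments) was at 132 and 156 FPKM in transgenic JIB-04 hearts, at 129.5, 157 and 192 FPKM in transgenic vehicle hearts and at 141, 137, 171 and 165 FPKM in wild type hearts. Jup (plakoglobin, an armadillo protein of both desmosomes and adherens junctions) was at 88.9 and 89.9 FPKM, at 82.3, 97.3 and 85.5 FPKM and at 86.5, 82.4, 89.4 and 90.0 FPKM in the same order. For both the groups overlapped throughout, and the log2 differences between transgenic vehicle and wild type hearts were -0.01 (95% interval -0.20 to 0.18, adjusted p = 0.933) for Dsp and 0.00 (-0.16 to 0.16, adjusted p = 0.976) for Jup, by limma. The ratio of Dsp to Jup in a heart averaged 1.73 ± 0.30 in transgenic hearts and 1.76 ± 0.14 in wild type hearts (exact two-sided permutation p = 0.794). In the annotation an unspecified minus-strand transcript, Gm10129, shares 465 exonic bases with Dsp, and the libraries do not keep strand.

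Desmosomal cadherins. Dsg2 (desmoglein-2, an adhesive cadherin of the cardiac desmosome) was at 8.65 and 8.38 FPKM in transgenic JIB-04 hearts, at 7.99, 8.28 and 12.7 FPKM in transgenic vehicle hearts and at 20.9, 18.9, 27.9 and 26.0 FPKM in wild type hearts. All 5 transgenic hearts lay below all 4 wild type hearts, and transgenic vehicle heart 3 stood above the other 4. The log2 difference was -1.35 ± 0.16 for JIB-04 against wild type hearts (adjusted p = 0.000716, limma) and -1.26 ± 0.15 for transgenic vehicle against wild type hearts (2.39-fold lower, adjusted p = 0.000487). Without transgenic vehicle heart 3 the second was -1.40 (adjusted p = 0.000163). An antisense gene over Dsg2, Gm16090, was at 0.0035 to 0.086 FPKM.

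Dsc2 (desmocollin-2, the partner cadherin of desmoglein-2) was at 7.40 and 7.46 FPKM in transgenic JIB-04 hearts, at 7.02, 7.21 and 6.46 FPKM in transgenic vehicle hearts and at 11.7, 12.1, 13.9 and 15.0 FPKM in wild type hearts. Again no transgenic heart reached the wild type range, and here transgenic vehicle heart 3 was the lowest. The log2 difference was -0.74 ± 0.10 for JIB-04 against wild type hearts (adjusted p = 0.00112, limma) and -0.86 ± 0.09 for transgenic vehicle against wild type hearts (1.81-fold lower, adjusted p = 0.000289). Both cadherin genes lie on chromosome 18, Dsg2 from 20558074 to 20604521 on the plus strand and Dsc2 from 20030633 to 20059554 on the minus strand. The ratio of Dsg2 to Dsc2 in a heart was 1.31 ± 0.37 in transgenic hearts and 1.78 ± 0.18 in wild type hearts, a log2 difference of -0.47 with an exact two-sided permutation p of 0.0635 (0.0952 adjusted over 3 ratios). Without transgenic vehicle heart 3 it was -0.63, with an exact p of 0.0286 and an adjusted p of 0.0429.

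The desmosomal genes can also be read as shares of their sum. Of the summed FPKM of Dsp, Jup, Pkp2, Dsg2 and Dsc2, which was 374 ± 10.8, 382 ± 41.5 and 326 ± 27.4 FPKM in transgenic JIB-04, transgenic vehicle and wild type hearts, Pkp2 made up 33.3 ± 2.78%, 30.9 ± 1.72% and 14.9 ± 1.28%. Dsg2 made up 2.28 ± 0.12%, 2.51 ± 0.46% and 7.16 ± 0.70%, and Dsc2 1.99 ± 0.05%, 1.83 ± 0.27% and 4.04 ± 0.26%, in the same order. These shares are descriptions of the levels above.

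**Figure D3:**
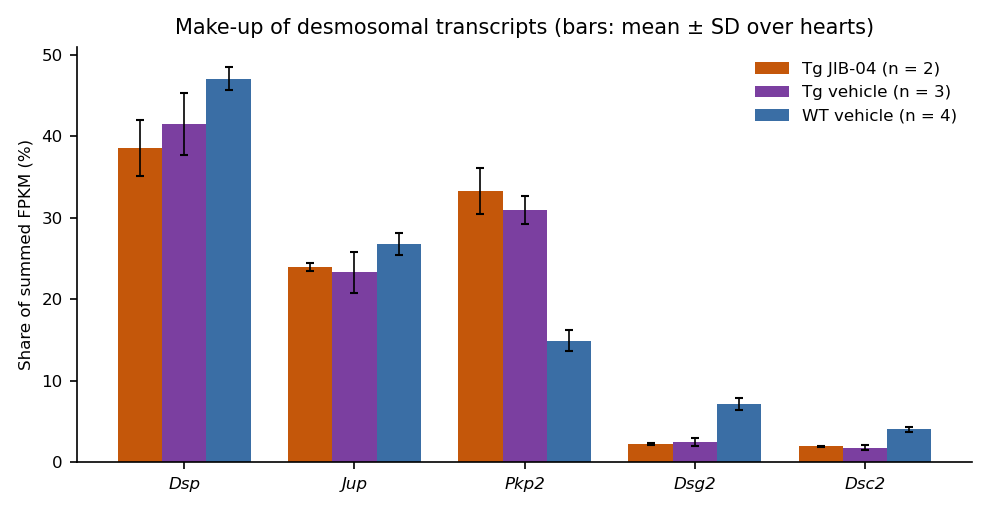
Share of each of 5 desmosomal genes in their summed FPKM (y axis, percent), as mean ± SD over the hearts of each group. Pkp2 took 33.3% and 30.9% in the transgenic JIB-04 and vehicle groups and 14.9% in wild type hearts, and Dsg2 and Dsc2 together stayed a small part of the sum in every group.

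Genes around the desmosome were also measured. Over all genes tested, 20.3% passed as higher and 15.7% as lower in transgenic vehicle hearts. Of 16 further desmosomal, plakin and intermediate filament genes 8 reached the level for testing, and in transgenic vehicle hearts 4 rose, all of them filament genes: Des (desmin, the muscle filament held by desmoplakin), Vim (vimentin, a filament of stromal cells), Synm (synemin) and Sync (syncoilin). Sync was at 20.98 and 22.1 FPKM in transgenic JIB-04 hearts, at 21.9, 23.6 and 17.8 FPKM in transgenic vehicle hearts and at 8.84, 8.97, 11.8 and 13.6 FPKM in wild type hearts (0.88 ± 0.14, adjusted p = 0.00227, limma, transgenic vehicle against wild type). Synm (0.70 ± 0.08, adjusted p = 0.000359) and Des (0.66 ± 0.09, adjusted p = 0.0012) also lay apart from wild type hearts in all 5 transgenic hearts. None of the 8 passed as lower with all hearts, and without transgenic vehicle heart 3 the tetraspan desmosomal protein gene Perp (-0.59, adjusted p = 0.00145) and the periplakin gene Ppl (-0.87, adjusted p = 0.0136) did. Without that heart Ppl reached 1 FPKM in wild type hearts alone, so that it entered that fit through the group in which it was higher.

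Adherens junction genes. Cdh2 (N-cadherin, the classical cadherin of the disc) was at 124 and 129 FPKM in transgenic JIB-04 hearts, at 112, 132 and 112 FPKM in transgenic vehicle hearts and at 78.9, 84.0, 90.2 and 99.0 FPKM in wild type hearts. All 5 transgenic hearts lay above all 4 wild type hearts. The log2 difference was 0.52 ± 0.09 for JIB-04 against wild type hearts (adjusted p = 0.00414, limma) and 0.40 ± 0.08 for transgenic vehicle against wild type hearts (1.32-fold, adjusted p = 0.00649). The first did not pass without JIB-04 heart 1 (0.46, adjusted p = 0.0544) or with day 158 hearts alone (adjusted p = 0.187), and the second did not pass with day 158 hearts alone (adjusted p = 0.152). With the replicate number as a block, adjusted p was 0.0758 and 0.0602. The locus lies on chromosome 18 from 16588877 to 16809246 on the minus strand.

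Ctnna3 (alpha-T-catenin, which binds both N-cadherin complexes and plakophilin-2 in the area composita) was at 8.08 and 10.7 FPKM in transgenic JIB-04 hearts, at 5.82, 11.2 and 8.18 FPKM in transgenic vehicle hearts and at 7.67, 7.78, 6.67 and 9.29 FPKM in wild type hearts. The transgenic vehicle hearts spanned the whole wild type range, and the log2 difference was 0.01 (95% interval -0.38 to 0.39, adjusted p = 0.982, limma). Among partners of the adherens junction, 4 of 20 tested rose and 6 fell in transgenic vehicle hearts. Over all genes tested 20.3% passed as higher and 15.7% as lower. Xirp2 and Xirp1, whose Xin proteins bind catenins and actin at the disc, differed by 1.31 ± 0.12 (adjusted p = 0.000163) and 1.26 ± 0.09 (adjusted p = 4.74e-05), and Pvrl2 (nectin-2, an adhesion molecule) by -1.01 ± 0.09 (adjusted p = 0.000134). Xirp2 was at 109 and 126.5 FPKM in transgenic JIB-04 hearts, at 89.8, 116 and 97.4 FPKM in transgenic vehicle hearts and at 35.002 to 44.9 FPKM in wild type hearts.

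Markers of several cell types also differed between transgenic and wild type hearts. Beside the marker counts that follow, 20.3% of all genes tested passed as higher and 15.7% as lower in transgenic vehicle hearts. Of 9 fibroblast markers 5 rose and none fell in transgenic vehicle hearts, with sums of 704 to 752 FPKM in transgenic JIB-04, 682 to 729 FPKM in transgenic vehicle and 321 to 411 FPKM in wild type hearts. Cardiac fibroblasts also express Cdh2. Of 9 cardiomyocyte markers 5 fell and none rose, with sums of 16500 to 18300, 16300 to 19070 and 20650 to 24540 FPKM in the same order. Desmosomes also occur in epithelia, whose defining genes Cdh1 and Epcam were at most at 0.134 FPKM in every heart. Of 8 epicardial, mesothelial and epithelial markers 2 were tested and 1 rose, Krt18, which reached 1 FPKM in transgenic hearts alone, with sums of 6.29 to 7.91, 4.59 to 10.6 and 2.55 to 4.801 FPKM. Of 7 smooth muscle markers, among them Des, 3 rose and 1 fell, with sums of 1226 to 1312, 1089 to 1338 and 652 to 681 FPKM. Des, also a filament gene of cardiomyocytes, made up most of each sum, at 773 and 742, at 739, 736 and 925 and at 492 to 522 FPKM. The median log2 difference of the 7 genes between transgenic vehicle and wild type hearts was -0.0004, against 0.05 over all genes tested. Of 6 macrophage markers tested none passed, with sums over 7 listed of 122 to 137, 118 to 142 and 91.3 to 124 FPKM. The part of fibroblasts and of the cardiomyocyte share in the junction genes was not tested.

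Partners and regulators of the disc changed in both directions. Of 20 genes for partners of junctions and channel clusters, all tested, 9 rose and 5 fell in transgenic vehicle hearts. The shares over all genes tested were 20.3% higher and 15.7% lower. Popdc3, a membrane protein gene of the Popeye family, was at 38.7 and 34.0 FPKM in transgenic JIB-04 hearts, at 35.3, 39.8 and 32.4 FPKM in transgenic vehicle hearts and at 12.0 to 13.6 FPKM in wild type hearts (1.42 ± 0.09, adjusted p = 3.06e-05, limma). No transgenic heart came near the wild type range of Popdc3. Sntb1, which encodes a syntrophin adaptor, differed by 1.40 ± 0.27 (adjusted p = 0.00513).

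Of 15 transcription factors known for acting on cardiac connexin genes 13 were tested. In transgenic vehicle hearts 3 rose and 4 fell, beside 20.3% and 15.7% of all genes tested. Hopx, a homeodomain protein that acts without binding DNA itself, was at 122 and 72.9 FPKM in transgenic JIB-04 hearts, at 95.9, 93.7 and 75.2 FPKM in transgenic vehicle hearts and at 216 to 284 FPKM in wild type hearts (-1.47 ± 0.16, adjusted p = 0.000314, limma). Tbx18 differed by 0.81 ± 0.10 (adjusted p = 0.000592) and Hey2 by -0.70 ± 0.11 (adjusted p = 0.00163), both at low levels. Hey2 entered the test through the wild type hearts, and was at 0.626 and 0.587 FPKM in transgenic JIB-04 hearts, at 0.811 to 1.16 FPKM in transgenic vehicle hearts and at 2.09 to 2.28 FPKM in wild type hearts. Among the 15, the cardiac factor Nkx2-5 did not pass (-0.06, adjusted p = 0.598) and Gata4 rose (0.62, adjusted p = 0.00414).

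The second question of the design is whether JIB-04 altered these genes in transgenic hearts. None of the 10 passed between JIB-04 and vehicle (limma), and none had an unadjusted p under 0.05, beside 0.00741% of all genes tested, that is 1 of 13487, with 444 genes at an unadjusted p under 0.05. The log2 differences lay between -0.12 for Gja5 and 0.22 for Ctnna3, with adjusted p from 0.987 to 0.99. The 95% intervals were -0.41 to 0.50 for Gja1, -0.52 to 0.27 for Gja5, -0.30 to 0.36 for Gjc1 and -0.24 to 0.68 for Ctnna3. For the desmosomal genes they were -0.31 to 0.15 for Dsp, -0.16 to 0.23 for Jup, -0.14 to 0.31 for Pkp2, -0.49 to 0.32 for Dsg2 and -0.13 to 0.36 for Dsc2, and for Cdh2 -0.11 to 0.34. For the 5 genes that passed between transgenic vehicle and wild type hearts, no interval reached the estimated size of that difference, with Gja1 closest. Those estimates have 95% intervals of their own, -0.92 to -0.16 for Gja1, and the JIB-04 interval for Gja1 reached into such sizes. Both comparisons share the transgenic vehicle hearts, and whether JIB-04 reversed a difference was not tested. Dsc2 was the single gene whose JIB-04 hearts did not overlap the transgenic vehicle hearts, being higher, where 12.4% of all genes tested did not overlap (5.55% higher and 6.88% lower). At each age JIB-04 had 1 heart, set against 1 vehicle heart on day 125 and 2 on day 158, too few for a test with replicates of its own. With the spread of the other groups, none of the 10 passed at either age, beside 0.0148% and 0.00741% of all genes tested, which adds no support.

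Against wild type, JIB-04 hearts had 4 of the 10 genes past the threshold, Pkp2 and Cdh2 higher and Dsg2 and Dsc2 lower, beside 32.3% of all genes tested (17.4% higher and 14.8% lower). The hearts of these groups did not overlap for 6 of the 10 genes, which adds Gja1 and Gja5, both lower, beside 50.2% of all genes tested (28.4% higher and 21.7% lower). For transgenic vehicle against wild type hearts 4 of the 10 did not overlap, beside 41.2% (23.4% higher and 17.7% lower), and the same 4 kept all 5 transgenic hearts apart from all wild type hearts, beside 35.6% (20.4% higher and 15.3% lower). The 2 comparisons share the wild type hearts, so that their likeness is not independent evidence. Among the 5 pathway lists, no gene passed between JIB-04 and vehicle.

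**Figure D4:**
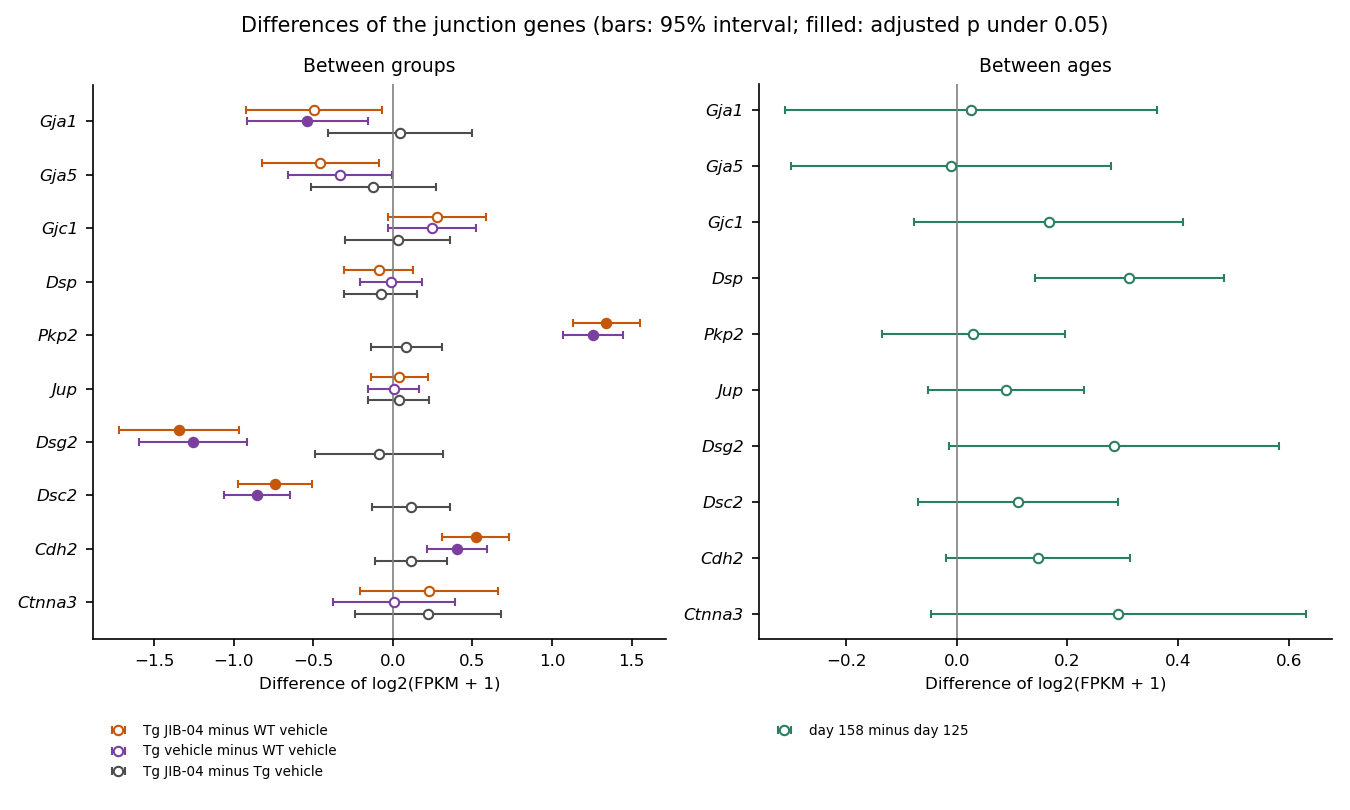
Differences of log2(FPKM + 1) with 95% intervals from limma for the 10 junction genes, between groups on the left and between day 158 and day 125 on the right, where the axis is finer; filled points passed an adjusted p of 0.05. Pkp2, Dsg2, Dsc2 and Cdh2 passed against wild type in both transgenic groups and Gja1 in the vehicle group, while no gene passed between JIB-04 and vehicle or between ages.

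Fewer genes passed the test between ages than between genotypes. None of the 10 genes passed between day 158 and day 125 (limma), beside 0.378% of all genes tested, and 1 had an unadjusted p under 0.05, Dsp at 0.31 ± 0.07 (log2, adjusted p = 0.0869). Over all genes tested, 2534 of 13487 had an unadjusted p under 0.05, so that 1 of 10 does not set these genes apart. Dsp was at 132 FPKM on day 125 and 156 FPKM on day 158 in JIB-04 hearts, at 129.5 FPKM and at 157 and 192 FPKM in transgenic vehicle hearts, and at 141 and 137 FPKM and at 171 and 165 FPKM in wild type hearts. In each group every day 158 heart was above every day 125 heart, and the share of all genes with such an order is not given here. The Dsp difference passed when hearts were scaled to equal totals without mitochondrial genes and the 20 highest genes (0.42, adjusted p = 0.0391), a scaling that also changed the calls over all genes to 138 higher and 37 lower (78.9% of calls higher), against 21 higher and 30 lower without it (41.2% higher). Dsg2 (0.28), Ctnna3 (0.29) and Cdh2 (0.15) were also above 0 without passing (adjusted p = 0.283, 0.33 and 0.321, limma). In all 9 of the 10 genes were above 0, while Gja5 was at -0.01. The median of the 10 was 0.13, against -0.03 over all genes tested, and the 10 were not tested together. Mouse numbers in the labels fall into separate ranges for each day, so age cannot be told apart from anything else that hearts of a day share.

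The values at each age can be set side by side, although at day 125 each transgenic group had 1 heart, whose spread is assumed to be like that of the other groups, so that a p at that age has no replicate check. At day 125, transgenic vehicle against wild type, Pkp2 was at 1.19 ± 0.14 (adjusted p = 0.0111, limma, with a mean for each of the 6 combinations of group and age), Dsg2 at -1.22 ± 0.24 (0.0387) and Dsc2 at -0.69 ± 0.13 (0.0373), beside 8.33% of all genes tested past the threshold (4.35% higher and 3.98% lower). At day 158 they were at 1.29 ± 0.11 (0.00261), -1.31 ± 0.19 (0.0121) and -0.98 ± 0.11 (0.00548), beside 16.7% (9.39% higher and 7.30% lower). Cdh2 did not pass at day 125 (0.46, adjusted p = 0.114) or day 158 (0.36, adjusted p = 0.089), and neither did Gja1 (-0.50 and -0.57, adjusted p = 0.364 and 0.172). No gene of the 10 showed a difference of the transgene effect between the ages (adjusted p of 0.999 for each, none with an unadjusted p under 0.05), the widest being 0.61 for Ctnna3 with a 95% interval of -0.17 to 1.38, and none of the JIB-04 effect (adjusted p of 1.0). Over all genes tested 0.00741% passed for the transgene effect and 0% for the JIB-04 effect, with 401 and 405 genes at an unadjusted p under 0.05. JIB-04 had 1 heart at each age, so these tests also rest on the spread of the other groups.

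The order of levels, which FPKM allows since it is per length, differed between genotypes. In wild type hearts Gja1 (173 ± 16.6 FPKM) and Dsp (154 ± 17.4 FPKM) led and overlapped, followed by Cdh2 and Jup, which overlapped, and then Pkp2, Dsg2, Gjc1, Dsc2, Ctnna3 and Gja5. In transgenic vehicle hearts Dsp, Gja1, Cdh2 and Pkp2 followed each other with overlap between neighbours. Jup came next by mean, although Gja1 in heart 3 (91.7 FPKM) lay within the range of Jup. Near the bottom, above Gja5, Ctnna3 overlapped Dsg2 and Dsc2, which did not overlap each other. In JIB-04 hearts Dsp led alone, Cdh2, Pkp2 and Gja1 followed with overlap between neighbours, and Gja5 was again last. Pkp2 thus came after Jup in wild type hearts and before it in both transgenic groups.

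For the 5 genes that passed, the genes of most similar pattern over the 9 hearts were those with the smallest root mean square difference of centred log2 values. For Pkp2, whose own root mean square deviation was 0.65, these were Fbln2 (0.053) and Zw10 (0.060). For Dsg2 (0.67) they were Gfra1 (0.075) and Fam65b (0.099), and for Dsc2 (0.41) Col6a6 (0.062) and Lrpprc (0.064). For Gja1 (0.32) they were Apbb2 (0.088) and Rnpep (0.094), and for Cdh2 (0.26) Itpr1 (0.035) and 2810402E24Rik (0.059). Among the 10 genes themselves Dsc2 was the nearest of them to Dsg2, at rank 216, and Dsc2 and Gja1 were the nearest of them to each other, at a difference of 0.22.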

How the data were processed

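Per the labels' protocols, RNA was extracted from hearts with Trizol, and the mRNA library kit was non-directional. The submitters' processing notes list GRCm38 with Cufflinks 2.2.1, GATK 4.1.2, Picard and STAR 2.7.1a, without saying what each did. The deposited values are log2 FPKM, with 1 file for each heart, per the file headers. No source gives the constant added before log2, which was taken as 1 because the lowest value was exactly 0. Loci in the files count from 0 (start plus 1 equals the GENCODE M21 start for 82.8% of 39331 genes matched) and are printed from 1.

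Group, replicate number and age of each heart are as labelled, although the series text has dosing run to day 158 and 4 hearts are labelled day 125. Genes reaching 1 FPKM in 2 hearts entered limma 3.58.1 (R 4.3.3, eBayes with a trend) as log2(FPKM + 1). The model held group means plus an effect of day over all 9 hearts, with 5 residual and 3.07 prior degrees of freedom, and its two-sided p-values were adjusted by Benjamini-Hochberg over 13487 genes. Fold changes on this scale understate the change of low genes. Ratios within a heart were compared with exact two-sided permutation tests in scipy 1.17.1.

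The 10 genes and all lists were chosen with earlier results of these data known. From each of the 5 pathway lists, the text names the tested genes with the largest difference past the threshold in transgenic vehicle against wild type hearts, up to 3, and genes named beyond these were chosen after their values were seen. A gene that this rule names is not reported here. For 6 genes an older symbol was used, and Cdh15 was not analysed here. Alternatives were another pseudocount, other filters and scalings, no effect of day, the compared groups or day 158 hearts alone, a replicate block, and each heart left out. Where 1 JIB-04 heart was left, it was assumed to vary like the other groups. Depth in reads is unknown, so no counting interval is given.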

Additional observations from a re-analysis of the deposited data

Results flagged for a closer look

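In wild type hearts the highest Gjc1 level stood far from the others: the gap between heart 3 (18.8 FPKM) and the next heart (13.7 FPKM) took 0.845 of the range of the 4 hearts on the log2 scale. Among the 5 transgenic hearts the ratio of Dsg2 to Dsc2 was far higher in vehicle heart 3, where the gap to the next heart took 0.929 of the range of the log2 ratio. Of 31 groups of values checked in this way, chance alone marks about 1 in 20.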

How the results depend on the processing

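Pkp2 and Dsg2 passed against wild type, in both transgenic groups, under every alternative run, and Dsc2 under all but day 158 hearts alone for JIB-04 hearts (adjusted p = 0.0506), and no difference of the 10 genes that had passed changed direction. Of the 10 genes, 5 passed between transgenic vehicle and wild type hearts, 3 with a replicate block and 3 with day 158 hearts alone (Gja1 and Cdh2 lost in both), and 4 to 5 with a heart left out. For JIB-04 against wild type hearts 4 passed, 2 with day 158 hearts alone, 3 with the block (Cdh2 lost), 6 by median of ratios (Gja1 and Gja5 gained), 5 by quantile normalization (Gja5 gained), 5 with the compared groups alone (Gja1 gained) and 3 to 6 with a heart left out. For day 158 against day 125, 0 passed and 1 after scaling to equal totals without mitochondrial and the 20 highest genes. Over all genes, the transgenic vehicle count of 4862 was 2458 with the block, 1217 with day 158 hearts alone and 3348 to 5008 with a heart left out. The JIB-04 against wild type count of 4354 was 1542, 651 and 1720 to 5322 in the same order. The JIB-04 against vehicle count of 1 was 0 with a pseudocount of 0.1, a filter at 5 FPKM, the block or day 158 hearts alone, 6 without a filter and 0 to 3 with a heart left out. The count of 51 between days was 23 without a filter, 175 after the equal totals scaling, 3 with the block and 9 to 287 with a heart left out. Differences of the transgene effect between days numbered 1, against 0 with a pseudocount of 0.1 and 186 without a filter, and of the JIB-04 effect 0, against 540 without a filter. The cause of these changes was not tested, beyond the fewer hearts in some fits. The log2 ratio of Gja1 to Gjc1 differed by -0.83 with transgenic vehicle hearts alone and by -0.76 with day 158 hearts alone, where adjusted p was 0.171 and 0.6 (exact permutation), and by -0.94 to -0.70 with a heart left out (adjusted p = 0.0429 to 0.107), designs whose smallest exact p is larger. That of Dsg2 to Dsc2 differed by -0.63 to -0.41 with a heart left out. Between same-numbered hearts, r of the deviations from group means ran from -0.186 to 0.432, over 0.1 in 3 of 7 pairs. The 2 JIB-04 hearts deviate from their mean as mirror images, so these values cannot decide whether the numbers pair hearts.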
